A study of Homo sapiens with 6 samples.

Results

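GC-poor promoter peaks are stretches of open chromatin that lie at the start of a protein-coding gene but, unlike most human promoters, sit in sequence with a low content of G and C. They were chosen from a table of 171517 ATAC-seq peaks by sequence and position, not by accessibility. The table itself joins peaks called in either group of libraries, so entry to it did depend on accessibility. A peak was a member when its centre lay within 1 kb of a GENCODE protein-coding transcript start on hg38 and the 200 bp around its centre had a GC content below 50%. The rule found 2572 peaks, which is 1.50% of all peaks and 5.64% of the 45627 promoter peaks, near the starts of 2098 genes.

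The study asked how dm-αKG, a cell-permeable dimethyl ester of the metabolite α-ketoglutarate, alters the use of regulatory elements in naive human embryonic stem cells (nES cells). ATAC-seq measures how readily a transposase cuts DNA, and so how open the chromatin is. The cells were of the line H9 in tt2iLGö medium, which holds PD0325901 (a MEK inhibitor), CHIR99021 (a GSK3 inhibitor), Gö 6983 (a protein kinase C inhibitor) and human LIF in all libraries, at 5% oxygen and with the ROCK inhibitor Y27632 for the first day after passaging. After removal of the mouse feeder cells they were kept on laminin, and 3 control libraries (labelled DMSO, with 0 mM dm-αKG in the protocol) and 3 libraries with 4 mM dm-αKG were collected, per the labels, 24 h after the change of medium. The study describes 3 biological replicates from 1 experiment on 1 line, so the spread between libraries does not cover other lines or repeats of the experiment.

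Most human promoters lie in CpG islands, which are rich in GC, hold binding sites of SP and KLF factors and tend to be open in most cell types. GC-poor promoters lack such islands, more often carry a TATA box, and are known from genes whose use is restricted to certain tissues, as well as from alternative first exons inside longer genes. α-Ketoglutarate is a cosubstrate of the TET enzymes, which oxidise methylated cytosine, and of the JmjC enzymes, which demethylate histones.

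Sequences of 7 members are shown first, 3 from the peaks with the strongest evidence of lower accessibility with dm-αKG and 4 from those of higher accessibility. Each is the 200 bp around the peak's centre in hg38, read 5′ to 3′ on the strand of the gene. Capitals mark exact matches, in either orientation, to 8 short words searched in every peak, namely the TATA box (TATAAA), the CCAAT box (CCAAT), the OCT octamer (ATGCAAAT), the SOX core (ACAAAG), the TEAD word (GGAATG), the AP-1 word (TGANTCA), the FOX word (TGTTTAC) and the antioxidant response element bound by NRF2 (TGACNNNGC), where N is any base. The choice of these 8 out of 20 words was made after their shares were seen.
PGLYRP2, chr19:15499067-15499266, minus strand, GC 47%: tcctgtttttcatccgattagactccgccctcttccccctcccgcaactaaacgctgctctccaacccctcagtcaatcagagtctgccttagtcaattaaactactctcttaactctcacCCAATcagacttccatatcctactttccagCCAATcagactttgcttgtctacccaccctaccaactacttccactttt
POU2F3, chr11:120236706-120236905, plus strand, GC 49.5%: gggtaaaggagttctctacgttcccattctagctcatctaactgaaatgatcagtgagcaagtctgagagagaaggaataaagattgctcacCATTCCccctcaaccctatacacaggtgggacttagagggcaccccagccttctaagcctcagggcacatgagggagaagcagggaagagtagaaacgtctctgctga
CLCC1, chr1:108947930-108948129, minus strand, GC 42.5%: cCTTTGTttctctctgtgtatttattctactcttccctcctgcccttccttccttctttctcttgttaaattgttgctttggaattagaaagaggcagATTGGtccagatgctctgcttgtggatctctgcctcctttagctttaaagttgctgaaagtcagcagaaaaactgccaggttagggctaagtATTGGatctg
SREK1IP1, chr5:64768144-64768343, minus strand, GC 47.5%: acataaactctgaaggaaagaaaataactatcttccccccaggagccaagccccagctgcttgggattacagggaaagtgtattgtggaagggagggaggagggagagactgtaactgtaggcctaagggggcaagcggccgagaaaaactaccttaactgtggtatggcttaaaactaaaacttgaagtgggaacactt
ERBB2, chr17:39703480-39703679, plus strand, GC 45%: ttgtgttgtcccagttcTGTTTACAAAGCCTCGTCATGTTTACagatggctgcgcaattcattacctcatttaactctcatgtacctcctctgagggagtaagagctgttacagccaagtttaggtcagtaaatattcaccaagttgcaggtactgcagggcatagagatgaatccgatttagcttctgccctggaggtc
RFFL, chr17:35063980-35064179, minus strand, GC 44.5%: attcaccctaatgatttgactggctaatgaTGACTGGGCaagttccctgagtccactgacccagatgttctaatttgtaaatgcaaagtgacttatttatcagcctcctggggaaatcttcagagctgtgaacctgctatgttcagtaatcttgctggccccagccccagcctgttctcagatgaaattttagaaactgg
ZNF474, chr5:122129418-122129617, plus strand, GC 47%: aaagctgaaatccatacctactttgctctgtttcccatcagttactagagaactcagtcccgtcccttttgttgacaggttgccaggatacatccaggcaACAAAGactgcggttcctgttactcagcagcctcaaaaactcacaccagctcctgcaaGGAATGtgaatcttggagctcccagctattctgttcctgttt

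In these stretches PGLYRP2 and CLCC1 each held 2 CCAAT boxes, forward in PGLYRP2 and reversed in CLCC1. The unbroken capitals in ERBB2 are 2 FOX words, a SOX core that overlaps the first of them, and a reversed antioxidant word that overlaps the end of the SOX core. SREK1IP1 held none of the 8 words.

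The libraries held 13025674 to 26828622 counts in peaks, of which 146287 to 303200, or 1.10% to 1.17%, fell in the members. Of the members, 2317 had at least 10 counts in every library. Replicates differed by more than sampling noise, with a chi-square of 1.63 to 2.00 per degree of freedom over the members, so no library was a copy of another. Promoter peaks were found for 6 of 6 markers of naive cells, with 200 to 746 normalised counts at the strongest peak in control, but also for 5 of 5 primed, 4 of 5 trophoblast, 3 of 3 primitive endoderm and 3 of 5 mesoderm and fibroblast markers, with 56.8 to 469 normalised counts. A check of sample identity from the counts did not match the labelled line in 6 of 6 libraries, whose cause was not tested. All results rest on these libraries, and the counts of called members on autosomes alone are given beside the first result.

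The members had a GC content from 32.5% to 49.5% with a median of 46.5%, against a median of 67% over all promoter peaks. Introns held 1307 of them, 848 lay outside transcripts, 341 in untranslated parts of exons and 76 in coding exons. Upstream of the nearest protein-coding start lay 61.3%. Most did not stand for the only promoter of their gene, since 1870 of the 2098 genes also had a promoter peak of GC content of at least 50% in the table and 228 did not. The canonical start of their own gene lay within 1 kb of 1520 members, and 1052 lay at alternative starts only.

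In control cells the members were less accessible than GC-rich promoter peaks. Their median normalised count, which is the count after TMM scaling to a common library size, was 50.5, against 107 for the 43055 promoter peaks of GC content of at least 50% and 65.3 for all peaks. It was close to the 46.6 of the 45754 GC-poor peaks beyond 1 kb of a start. The same order held in each of the 3 control libraries, where the median was 48.6 to 52.6 for members, 106 to 108 for GC-rich promoter peaks and 46.2 to 47.7 for GC-poor peaks farther away. Accessibility of members was highest within 200 bp of a start, at a median of 67.5, and lay at 41.8 from there to 500 bp and at 54.1 beyond 500 bp. Counts of peaks were not divided by the width of the peak, whose median was 203 bp for members and 205 bp for GC-rich promoter peaks. TMM sets 1 factor per library and does not adjust these levels for GC content, whose effect on the counts was not tested.

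**Figure D1:**
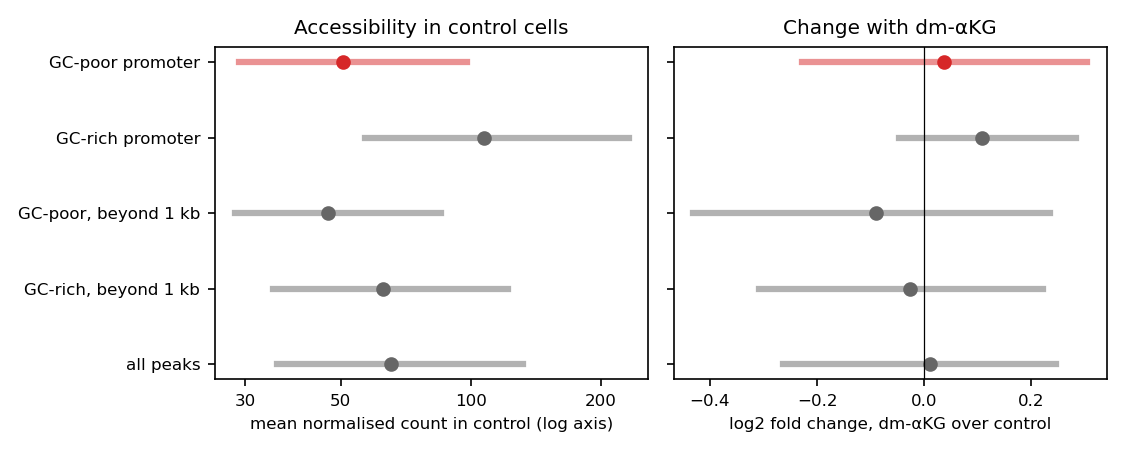
Left, mean normalised count per peak in the 3 control libraries on a log axis, and right, log2 fold change of dm-αKG over control, with points for the median and bars for the middle 50% of peaks of each class. GC-poor promoter peaks sit near GC-poor peaks beyond 1 kb in control counts (50.5 and 46.6), and between them and GC-rich promoter peaks in the change (medians 0.038, -0.090 and 0.11).

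The 5 most accessible members, ranked by normalised count without division by width, lay at starts of genes used in most cells. The peaks of ATP5F1B, DNM2 and ARID4A were wider than the members' median of 203 bp, and a rank per bp was not computed. ATP5F1B, which encodes the beta subunit of the mitochondrial ATP synthase, had 1775, 1633 and 1792 normalised counts in the control libraries and 1705, 1763 and 1965 with dm-αKG. DNM2, the GTPase dynamin 2 of vesicle scission, had 1565, 1709 and 1563 in control and 1806, 1917 and 1844 with dm-αKG. These groups did not overlap for DNM2, and its log2 fold change was 0.20 with a standard error of 0.056 (adjusted p = 0.00653, edgeR quasi-likelihood test with Benjamini-Hochberg adjustment over all peaks). The adjusted p rose to 0.0531, 0.0433 and 0.0575 without control replicate 1, control replicate 3 and dm-αKG replicate 2, to 0.0136 with thinning and to 0.279 with TMM factors from GC-rich promoter peaks. ARID4A (a subunit of histone deacetylase complexes), ARMC1 and GBF1 (an exchange factor of Golgi traffic) had mean normalised counts in control of 1286, 942 and 908. Their libraries overlapped between the groups, with log2 fold changes of 0.056, -0.025 and 0.030 (standard errors 0.060, 0.066 and 0.065), whose sign turned under other scalings.

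In their short sequence words the members were closer to GC-poor peaks elsewhere than to other promoters. The TATA box was found in 8.75% of members, in 1.53% of GC-rich promoter peaks, in 9.18% of GC-poor peaks beyond 1 kb and in 4.05% of all peaks. The GC box of SP factors (GGGCGG) was found in 7.78% of members, in 55.7% of GC-rich promoter peaks, in 3.87% of GC-poor peaks beyond 1 kb and in 26.3% of all peaks. The CCAAT box stood in 29.0% of members, against 17.8% of GC-rich promoter peaks, 27.1% of GC-poor peaks beyond 1 kb and 20.4% of all peaks.

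AT-rich words of the pluripotency factors were also common. The SOX core was found in 19.0% of members and 13.2% of all peaks, and the OCT octamer in 3.77% and 2.28%. GC-poor peaks beyond 1 kb held them more often than members, in 21.9% and 5.21%. Words with more GC were scarcer, with 5.37% of members and 17.9% of all peaks for TFAP2 (GCCNNNGGC) and 7.39% and 13.7% for KLF (GGGNGTGG). The GATA word (AGATAA) was in 11.6% of members and 6.22% of all peaks, and the AP-1 word in 7.31% and 6.33%. The AP-1 word read in reversed order (ACTNAGT), which serves as a comparison of like composition, was in 6.03% of members and 3.35% of all peaks. It was in 5.53% of GC-poor peaks beyond 1 kb. The GC content that defined the members also sets how often such words occur, and the shares were not tested.

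**Figure D2:**
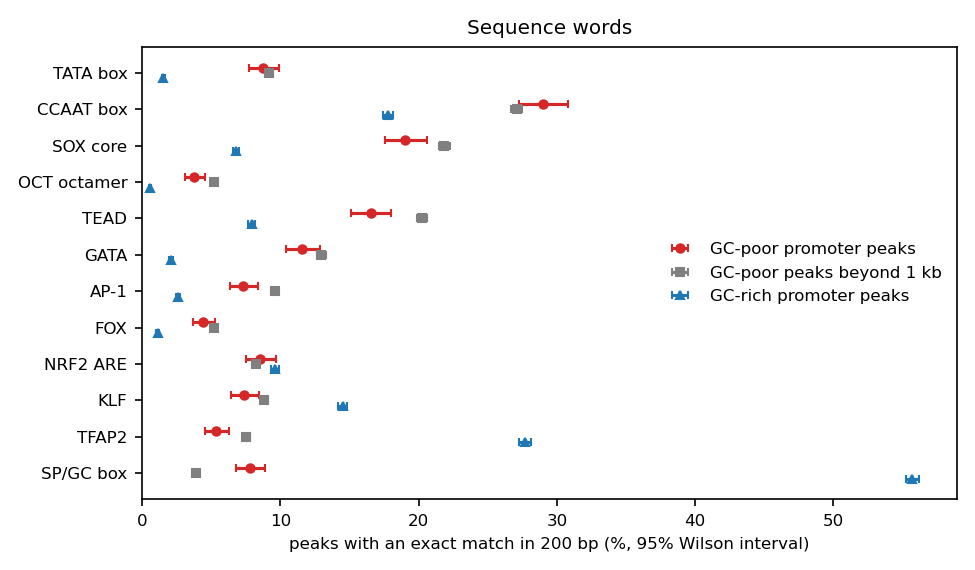
Share of peaks with an exact match, on either strand, to each of 12 words in the 200 bp around the centre, with 95% Wilson intervals, for GC-poor promoter peaks, GC-poor peaks beyond 1 kb and GC-rich promoter peaks. For the words drawn, members lie closer to other GC-poor peaks than to GC-rich promoter peaks. They still differ from other GC-poor peaks at several words, such as the TEAD word (16.5% of members, 20.2%) and the SP/GC box (7.78% of members, 3.87%). The widest gap to GC-rich promoter peaks is at the SP/GC box (55.7% against 7.78% of members).

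With dm-αKG, 44 members became less accessible and 28 more accessible in edgeR's quasi-likelihood test, where a call needed more than a 2-fold change and an adjusted p below 0.01. These are 1.71% and 1.09% of the members, against 1.96% and 0.782% of all peaks, so neither share was far from that of all peaks. Without the fold threshold 120 members were lower (4.67%, all peaks 6.54%) and 67 higher (2.60%, all peaks 3.34%). With single libraries left out, the lower members fell to 76 without control replicate 2 or dm-αKG replicate 1, and the higher ones to 33 without dm-αKG replicate 2 and to between 41 and 44 without dm-αKG replicate 1 or any 1 control. On autosomes alone 40 members were called less and 26 more accessible. The 72 called members belonged to 71 genes, and 61.1% of them were less accessible (95% Wilson interval 49.6 to 71.5).

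That split depended on the scaling. With offsets set within bins of GC content, 33 members were called less and 48 more accessible, so that 40.7% were less accessible, and with TMM factors taken from GC-rich promoter peaks the counts were 61 and 17, or 78.2%. Over all peaks the shift between treatments moved with GC content, from -0.13 on the log2 scale in the bin of lowest GC (median 40%) to 0.13 in the bin of highest GC (median 78.5%). The members lie at the low end of this range, and whether the shift is technical was not tested.

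All 3 dm-αKG libraries lay below all 3 controls in 353 members (13.7%, all peaks 16.9%) and above them in 405 members (15.7%, all peaks 15.5%). Of the called members, 43 of the 44 less accessible and 28 of the 28 more accessible did not overlap between the groups. The exception was the peak of CD44 (chosen after its values were seen), a receptor for hyaluronan, where control replicate 2 had 12.3 normalised counts against 46.5 and 57.1 in the other controls and 12.9, 11.6 and 17.96 with dm-αKG.

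The median log2 fold change of the members was 0.038, against 0.011 over all peaks, 0.11 in GC-rich promoter peaks and -0.090 in GC-poor peaks beyond 1 kb. The sign of the members' median was not stable, since TMM factors from GC-rich promoter peaks moved it to -0.063 while they moved the median of all peaks to -0.090. Relative to all peaks the members were 0.027 higher, and a change of TMM factors moves both alike. That difference was 0.12 with GC-bin offsets, and 0.0076 and 0.060 without control replicate 3 and control replicate 2. The median normalised count of the members was 48.6 to 52.6 in the control libraries and 52.4 to 53.9 with dm-αKG, so the groups overlapped.

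**Figure D3:**
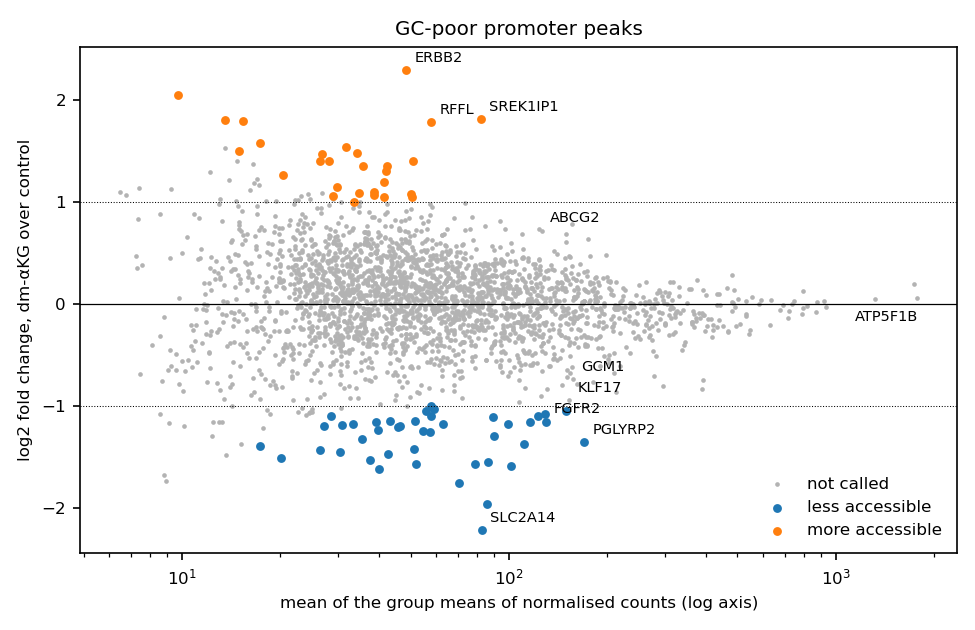
Log2 fold change of dm-αKG over control against the mean normalised count (log axis) of each GC-poor promoter peak, with called peaks in colour and the fold threshold dotted (Y-linked peaks not drawn). Called peaks lie at low and middle counts, and the 5 members of highest count lie near 0.

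The 10 less accessible members with the smallest adjusted p had log2 fold changes from -2.22 to -1.04, and 8 of them lay in introns (50.8% of all members did). SLC2A14, a glucose transporter of the GLUT family that is a near copy of SLC2A3, had 157, 125 and 128 normalised counts in the control libraries and 33.7, 20.5 and 31.4 with dm-αKG. Its log2 fold change was -2.22 with a standard error of 0.20 (adjusted p = 3.06e-15). The peak lies in an intron at an alternative start. It is in repetitive sequence, and how the authors' pipeline placed reads with several matching sites is not given in the sources used here, so its value is uncertain. The other members of SLC2A14 had log2 fold changes of 0.11 and -0.04 and did not pass the test.

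PGLYRP2, an enzyme that cuts bacterial peptidoglycan, had a peak with 270, 234 and 227 normalised counts in control and 94.7, 103 and 88.3 with dm-αKG. This was the highest control level among the 10, and its log2 fold change was -1.36 with a standard error of 0.13 (adjusted p = 9.70e-14). The peak lies at an alternative start, 19666 bp from the canonical one. In the authors' peak lists, which pool the libraries of a treatment, it had a fold enrichment over background of 26.0 in control and 19.9 with dm-αKG. DNAAF11, which helps to assemble the dynein arms of cilia, fell from 147, 153 and 107 to 29.4, 35.9 and 43.4 normalised counts at an alternative start on chromosome 8.

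POU2F3, an octamer-binding factor of tuft cells, had 143, 163 and 141 normalised counts in control and 30.8, 60.3 and 68.9 with dm-αKG. The peak of FGFR2, a receptor of fibroblast growth factors, had 178, 186 and 177 in control and 93.9, 83.4 and 58.4 with dm-αKG. Both groups were apart in both genes, and the log2 fold changes were -1.59 and -1.15 with standard errors of 0.19 and 0.15. The POU2F3 peak lies in an intron at an alternative start, 3334 bp from the canonical one. The FGFR2 peak lies in an intron, 1422 bp from the canonical start, whose GC-rich peak (mean 386 in control, 423 with dm-αKG) had a log2 fold change of 0.12 with a standard error of 0.09.

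CLCC1, a chloride channel of the endoplasmic reticulum, ZSCAN2, a zinc finger factor, and TRIM38, a ubiquitin ligase of innate immunity, fell by 1.37, 1.55 and 1.75 on the log2 scale. Their control means were 160, 130 and 108 normalised counts. The peaks of CLCC1 and ZSCAN2 lie at alternative starts, 15454 and 2764 bp from the canonical ones. The other TRIM38 members had log2 fold changes of -0.53 and -0.05 and did not pass the test. CLEC4C, a lectin of plasmacytoid dendritic cells, had 2 called peaks, with log2 fold changes of -1.57 and -1.29. The first of these lies at an alternative start, 3560 bp from the canonical one. H2BC12, which encodes histone H2B, had a peak 755 bp downstream of its start with 196, 224 and 177 normalised counts in control and 84.6, 104 and 109 with dm-αKG. Histone H2B genes are near copies of each other, so its reads are uncertain in part.

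The other less accessible members on autosomes and X had log2 fold changes between -1.61, at YPEL2, and the threshold. Among them were peaks at the starts of MTA2 (a subunit of the NuRD complex), CCDC80, ETV1 (an ETS factor) and the olfactory receptor OR3A3, all chosen after their values were seen. Their log2 fold changes were -1.18, -1.57, -1.26 and -1.17. Peaks of GTF2I, UQCRHL and RPS10-NUDT3 were also called, and these share sequence with copies or join neighbouring genes, so their reads are uncertain.

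The 10 more accessible members with the smallest adjusted p started from low counts. A call of higher accessibility favours peaks that are low in control. Of the 28 such members, 23 entered the table through the dm-αKG list only, so the low start is not a separate result. The largest change was at ERBB2, the receptor tyrosine kinase HER2, with 15.2, 19.7 and 13.4 normalised counts in control and 80.3, 96.2 and 65.9 with dm-αKG. Its log2 fold change was 2.30 with a standard error of 0.26 (adjusted p = 2.79e-11). The peak lies in an intron, 386 bp downstream of an alternative start and 3516 bp from the canonical one, and it was in the authors' dm-αKG list only.

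SREK1IP1, which binds a splicing regulator, had 34.9, 32.1 and 42.5 normalised counts in control and 119, 153 and 111 with dm-αKG. RFFL, a ubiquitin ligase, had 24.1, 22.2 and 31.6 in control and 76.0, 104 and 88.3 with dm-αKG. The lowest dm-αKG library was more than 2-fold above the highest control in both, and the log2 fold changes were 1.82 and 1.79 with standard errors of 0.20 and 0.23. ATP6V0D2, a subunit of the proton pump of lysosomes, rose from 28.1 ± 6.30 to 73.9 ± 12.7 normalised counts (SD, n = 3).

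Zinc finger genes gave 2 of the 10, with log2 fold changes of 1.36 at ZNF474 and 1.48 at ZNF529. BRDT, a bromodomain protein of male germ cells, had 20.6, 19.7 and 20.6 normalised counts in control and 58.8, 60.3 and 34.4 with dm-αKG. CLIP4 (a linker to microtubules), VSIG10 and MRPS16 (a protein of the mitochondrial ribosome) had log2 fold changes of 1.31, 1.54 and 1.20. At MRPS16 the third dm-αKG library, with 34.4 normalised counts, was near the highest control at 32.2, and the call was lost when either control replicate 2 (adjusted p = 0.0141) or dm-αKG replicate 1 (adjusted p = 0.0207) was left out.

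**Figure D4:**
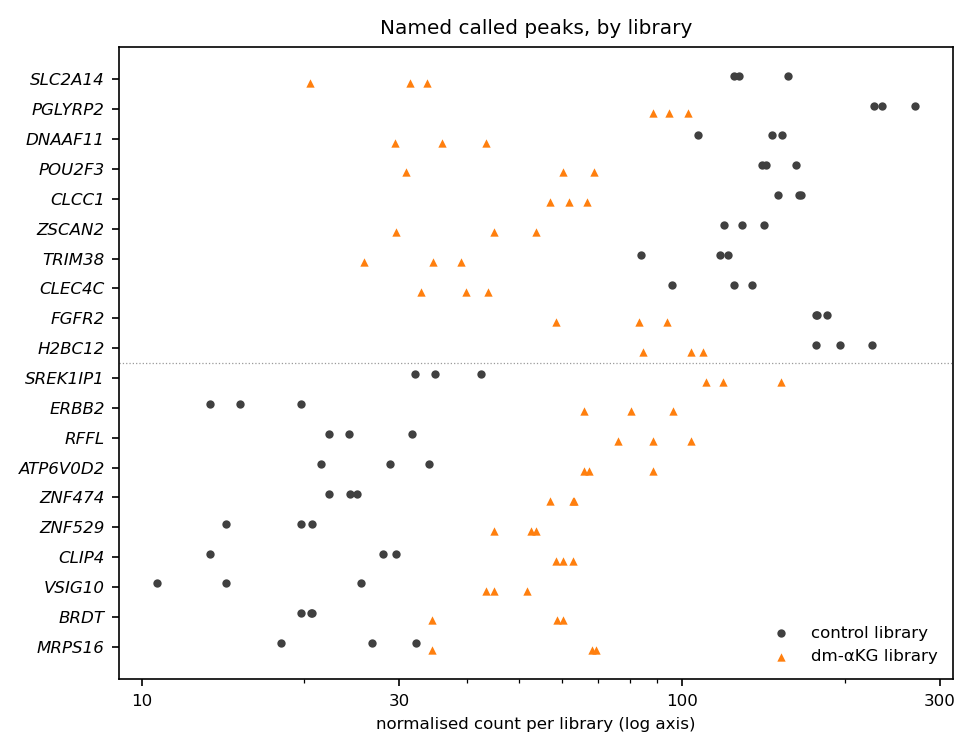
Normalised count (log axis) in each of the 3 control libraries (circles) and 3 dm-αKG libraries (triangles) for the 10 less accessible members (above the dotted line) and the 10 more accessible members (below it). The groups do not overlap in any of the 20 peaks, which the choice of these peaks required. The more accessible peaks start from control means of 16.1 to 36.5, and a low start is favoured by the call itself.

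Called members were set beside the GC-rich promoter peak of the same gene. The 37 less accessible members whose gene had such a peak shared 36 partners, of which 0 were called less accessible, 2 were lower at an adjusted p below 0.01 (SLC2A14 and CLEC4C) and 1 was higher. Of the 24 partners of more accessible members 0 were called and 1, at VSIG10 (log2 fold change 0.44), was higher at that threshold. Over all GC-rich promoter peaks 0.139% were called less and 0.425% more accessible, and 1.50% were lower and 4.62% higher at that threshold. The fold change had the sign of the member in 12 of the 36 and in 18 of the 24 partners, whose medians of 0.048 and 0.13 lie beside the 0.11 of all GC-rich promoter peaks. The partner was taken as the GC-rich peak of highest mean count, and lay at a median distance of 13540 bp from the less accessible and 855 bp from the more accessible members. The partners had a median of 392 and 163 normalised counts in control, against 78.0 and 19.4 at the members, so a change of a given size was measured more precisely in the partners.

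The strongest GC-rich peak of SLC2A14, 27260 bp from the member, had 458 ± 36.0 normalised counts in control and 362 ± 42.7 with dm-αKG (SD, n = 3), and its log2 fold change was -0.32 with a standard error of 0.09 (adjusted p = 0.00488). For PGLYRP2 the partner was weak, with 31.0 ± 6.88 and 18.9 ± 6.01 normalised counts, and its log2 fold change of -0.65 did not pass the test (adjusted p = 0.168). At CLEC4C the partner had a GC content of 50.5%, just outside the rule, and fell by 0.88 on the log2 scale (adjusted p = 3.40e-14), from 607 ± 11.3 to 335 ± 50.5 normalised counts. The opposite change was at EIF4H, a translation factor, whose member had a log2 fold change of -1.10 and whose GC-rich partner had one of 0.40 (adjusted p = 0.00068).

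Members at alternative starts were called less accessible more often than those at a canonical start, a split made after the values were seen. Among the 1052 members at alternative starts only, 3.04% were called less accessible (95% Wilson interval 2.16 to 4.26) and 0.951% more. Among the 1520 members within 1 kb of the canonical start of their own gene, 0.789% were called less accessible (0.452 to 1.37) and 1.18% more. Over all peaks these shares were 1.96% and 0.782%. The median normalised count in control was alike, at 52.7 and 49.7. Introns held 32 of the 44 less accessible and 21 of the 28 more accessible members, and 50.8% of all members. Of intron members 2.45% were called less and 1.61% more accessible, against 1.71% and 1.09% of all members. The 2 splits overlap, since 43.6% of intron members lay near their own canonical start, against 59.1% of all members. Of the 76 members in coding exons 0 were called in either direction, which allows a share of up to 4.81% in each (Wilson). These intervals cover counting error only, neighbouring peaks are not independent, and the differences were not tested.

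At the same GC content, members were called less accessible less often than peaks farther from a start. Between 45% and 50% GC this was 1.44% of 1810 members against 3.55% of 27061 peaks beyond 1 kb, and between 40% and 45% it was 2.17% of 646 against 4.34% of 14740. For more accessible peaks the shares were 1.22% against 1.23% and 0.929% against 1.40%. Just inside the rule, the 478 members with 49% or 49.5% GC had 1.26% less and 0.837% more accessible, and the 537 promoter peaks just outside it, with 50% or 50.5%, had 0.372% and 0.559%. The 5-point bins were chosen after the values were seen.

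**Figure D5:**
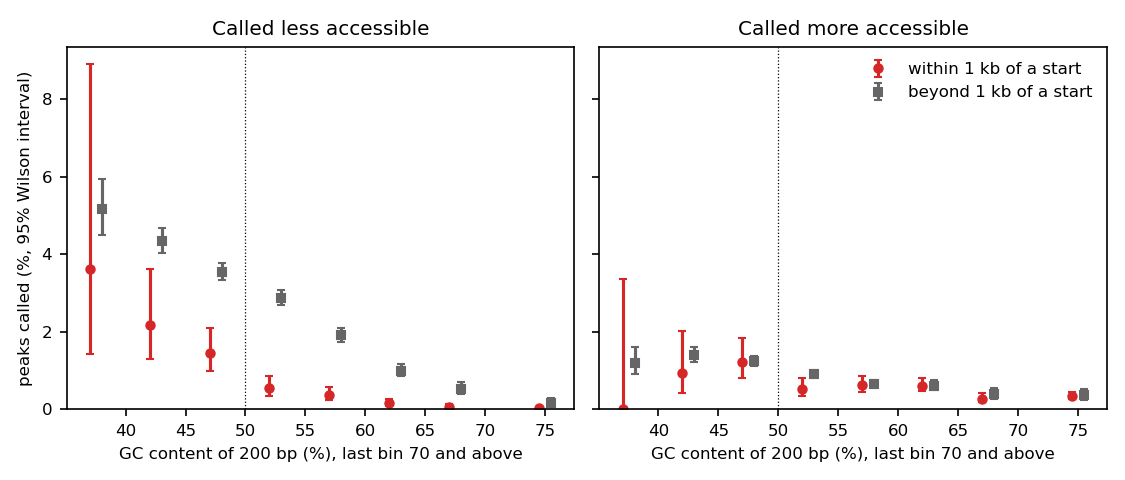
Share of peaks called less (left) and more (right) accessible by GC content, for peaks within 1 kb of a protein-coding start and beyond 1 kb, with 95% Wilson intervals and the 50% limit of the rule dotted. The 5 promoter peaks below 35% GC are not drawn, and the shares called less accessible fall with rising GC in both classes while staying lower at promoters.

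Genes of naive pluripotency were the list with most lower members. Of its 40 genes, 10 had 18 members, of which 5 were lower and 0 higher at an adjusted p below 0.01 (27.8% lower, against 6.54% of all peaks and 4.67% of members), and the median log2 fold change was -0.27 against 0.01 over all peaks. Of the 18, 0 passed the fold threshold. The count of 5 was smaller under some settings, with 2 under GC-bin offsets, 3 under DESeq2 or thinning, and 2 to 5 with single libraries left out, lowest without dm-αKG replicate 2 and at 3 without control replicate 1 or 2. KLF17, a factor of the naive state and the early embryo, had 188, 221 and 197 normalised counts in control and 120, 94.9 and 94.3 with dm-αKG at a peak 928 bp inside the gene. Its log2 fold change was -0.94 with a standard error of 0.14 (adjusted p = 1.19e-07).

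KHDC1L, a gene of embryonic genome activation, had 262 ± 20.8 normalised counts in control and 174 ± 11.5 with dm-αKG (SD, n = 3) at a peak 352 bp upstream of its start. The other KHDC1L member had a log2 fold change of -0.27 that did not pass the test (adjusted p = 0.0698). GDF3, a ligand of the TGF-β family, had 4 members, of which the one 988 bp downstream of the start fell by 0.40 on the log2 scale (adjusted p = 0.000806, 0.0126 or 0.0148 when the second control or the second dm-αKG library was left out, and 0.0120 with GC-bin offsets). The other members of GDF3 had log2 fold changes of -0.41, 0.26 and 0.65 and did not pass the test. At DPPA4, a DNA-binding protein of pluripotent cells, the peak at the start had 155, 160 and 174 normalised counts in control and 125, 98.8 and 106 with dm-αKG (adjusted p = 0.00400). Its adjusted p was 0.0122, 0.0163 and 0.0243 when the first, the second or the third control was left out, and 0.0354 when the second dm-αKG library was. It was 0.0179 with DESeq2, 0.0156 with GC-bin offsets and 0.0143 with thinning. The other DPPA4 member had a log2 fold change of -0.23 that did not pass the test (adjusted p = 0.415). NLRP2, outside the naming rule, was the fifth, with a log2 fold change of -0.60 (adjusted p = 0.00458), and with single libraries left out it passed only without the second or the third control. It also missed the threshold with DESeq2 (0.0232), GC-bin offsets (0.0154) and thinning (0.0292).

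NANOG had 1 member, with 75.1, 90.4 and 81.4 normalised counts in control and 133, 78.3 and 74.8 with dm-αKG. Here 1 dm-αKG library was above all others, and the log2 fold change of 0.27 did not pass the test (adjusted p = 0.305). The members of GDF3, CLEC4C, NANOG, SLC2A14 and SLC2A3 are neighbours on chromosome 12. Of these 11 members, 4 were lower at an adjusted p below 0.01, against 6.54% of all peaks and 4.67% of members. They were both called peaks of CLEC4C, the GDF3 peak above and the SLC2A14 peak of uncertain value. The stretch was set by genes already named above, so the count is not a fair sample. The single member of SLC2A3 had a log2 fold change of 0.040.

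Of 11 members at 7 of the 48 listed trophoblast genes, 1 was lower and 2 were higher at an adjusted p below 0.01 (9.09% and 18.2%, against 6.54% and 3.34% of all peaks). GCM1, a factor that drives syncytiotrophoblast formation, had 215, 169 and 202 normalised counts in control and 105, 137 and 112 with dm-αKG. Its log2 fold change was -0.74 with a standard error of 0.14 (adjusted p = 3.14e-05). ABCG2, a drug efflux pump of the placenta, had 93.0, 116 and 71.7 in control and 146, 158 and 172 with dm-αKG. Its log2 fold change was 0.72 with a standard error of 0.15 (adjusted p = 0.000254). The other ABCG2 member had a log2 fold change of -0.03 (adjusted p = 0.968).

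TP63, a p53-related factor of cytotrophoblast and epithelia, rose from 24.5 ± 6.52 to 52.8 ± 13.2 normalised counts (SD, n = 3) at an alternative start, with an adjusted p of 0.00159 that went to 0.0178 when the third control was left out and to 0.0596 when the first dm-αKG library was, and was 0.0138 with DESeq2. The other TP63 member had a log2 fold change of -0.40 and did not pass the test (adjusted p = 0.409). ERVFRD-1, which encodes the fusogen syncytin-2, had 3 members with log2 fold changes of -1.37, -0.88 and -0.06, and 0 of them passed the test (the lowest adjusted p was 0.0168).

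The primed pluripotency list had 2 members, primitive endoderm 4, mesoderm and fibroblast 2, and 0 of these 8 passed the adjusted p. The strongest were USP44 (67.0 ± 22.4 and 60.2 ± 9.91 normalised counts), HNF4A (302 ± 17.4 and 283 ± 12.4) and COL1A2 (91.5 ± 18.5 and 66.2 ± 12.6; SD, n = 3, control before dm-αKG). In all 3 genes the groups overlapped.

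The stress and signalling lists had 1 to 9 members each. Of 9 members of the interferon list 1 was lower, at IFIT3, an interferon-induced protein, with 114, 129 and 132 normalised counts in control and 78.9, 85.9 and 80.8 with dm-αKG (adjusted p = 0.00422). Of 5 members of the ATF4 list 1 was lower, at the tryptophanyl-tRNA synthetase WARS1, with a log2 fold change of -0.59 (adjusted p = 0.00546). Both calls were lost in several settings. With DESeq2 the adjusted p was 0.0185 at IFIT3 and 0.0365 at WARS1, with GC-bin offsets it was 0.0302 and 0.0364, and with thinning it was 0.0200 at IFIT3. At IFIT3 the adjusted p was 0.0283 and 0.0219 when the second or the third control was left out, and 0.0359 and 0.0106 when the first or the second dm-αKG library was. At WARS1 it was 0.0236 and 0.126 when the first or the second control was left out, and 0.0480 and 0.0236 when the first or the second dm-αKG library was. The lists of NF-κB (5 members), NRF2 targets (5), AP-1 and immediate early genes (1) and p53 targets (1) had 0 members past the adjusted p, and by unadjusted p below 0.05 they had 1, 2, 1 and 0. Of all 2572 members, 333 were lower and 342 higher by unadjusted p below 0.05.

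Of the germline list, BRDT was higher at 1 of its 2 members and SYCP1, of the synaptonemal complex, had a log2 fold change of 0.90 that did not pass the test (adjusted p = 0.0110). Embryonic genome activation had 3 members, of which the KHDC1L peak above was lower.

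Sequence words differed between the less and the more accessible members, in small numbers and with words picked after the values were seen. The SOX core, the TEAD word or the OCT octamer was found in 25 of 44 less accessible members (56.8%), in 5 of 28 more accessible ones (17.9%), in 34.8% of all members and in 27.2% of all peaks. The AP-1, FOX or NRF2 word was found in 2 of 44 less accessible members (4.55%), in 10 of 28 more accessible ones (35.7%), in 18.5% of all members and in 17.2% of all peaks. Taken singly, the SOX core was in 14 of the less and 4 of the more accessible members, and the TEAD word in 13 and 2. The OCT octamer was in 2 and 0, so its share of the less accessible members (4.55%) was near that of all members (3.77%). The FOX word was in 1 and 4, and the NRF2 word in 0 and 4. AP-1 alone was in 1 and 6 of these peaks, and its reversed order in 3 and 2. The CCAAT box was in 16 of 44 and 8 of 28, against 29.0% of members.

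Over all members the words went with small differences. The median log2 fold change was -0.02 in members with the SOX core and 0.05 without it, 0.22 with the FOX word and 0.03 without it, and 0.12 with the AP-1 word and 0.03 without it. The TEAD word went with -0.01 against 0.05, and the TATA box with 0.07 against 0.04. Differences of like size were found for the OCT octamer (-0.09 against 0.04), the KLF word (-0.06 against 0.04), the CCAAT box (-0.02 against 0.07) and the NRF2 word (0.09 against 0.03). No test was run on these shares and medians.

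The authors' peak lists mostly moved with the same counts. Of the members, 1689 overlapped peaks of both lists, 415 of the control list only and 468 of the dm-αKG list only. Of the 44 less accessible members 35 were in the control list only, and of the 28 more accessible ones 23 were in the dm-αKG list only. Against this, 1 less accessible member was in the dm-αKG list only, the CLEC4C peak with a log2 fold change of -1.29. Of the 1689 members in both lists, 8 were called less and 5 more accessible. These are 0.474% and 0.296%, against 1.71% and 1.09% of all members, so most calls were at members that entered through 1 list. The lists were called from the same reads, so this is not independent of the counts.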

How the data were processed

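ATAC-seq peaks of 3 control and 3 dm-αKG libraries were grouped by the labels. Per the labels and the methods of the paper, the authors demultiplexed reads with bcl2fastq 2.20.0.422, trimmed them, aligned them to hg38 with Bowtie 2 and called peaks with MACS2 in the ENCODE ATAC-seq pipeline, run per treatment, keeping peaks reproducible by the irreproducible discovery rate. The authors deposited 1 list per treatment with a score, a fold enrichment ratio and p and q values as −log10 for each peak, of which the positions and the fold enrichment were used here. They also deposited raw counts per library in peaks truncated to 200 bp around the summit and merged (bedtools 2.28.0). All 6 count columns were used.

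GENCODE 44 transcript starts and hg38 sequence were read with Python 3.11.15 and pysam 0.24.0. Counts were tested over all 171517 peaks, without a filter, with edgeR 4.0.16 (R 4.3.3, TMM, quasi-likelihood, treatment only, Benjamini-Hochberg), calling peaks with an adjusted p below 0.01 whose log2 fold change exceeded 1 in size. Errors are the change divided by the root of the F statistic. With 3 against 3 libraries an exact permutation test cannot go below 0.10. The script was tested on simulated counts. Words were exact matches on both strands, and shares have Wilson 95% intervals, which cover counting error over peaks only and treat peaks as independent. Reads carry no molecular identifiers. Alternatives were DESeq2 1.42.0, limma 3.58.1 (voom), other scalings and offsets by GC content, thinning, a count filter, other member rules, a replicate block and leaving out each library.

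Members were named by the gene of the nearest protein-coding start. Named with values were the 10 called members per direction with the smallest adjusted p and no overlap, members of 13 gene lists with an adjusted p below 0.01 (at most 4 per list, and the highest member of 5 lists), the 5 most accessible members, and 3 genes with both kinds of peak. The members, lists and words were chosen with earlier results of these data known. The sequence of 1 further member is not reported here.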

Additional observations from a re-analysis of the deposited data

How the results depend on the processing

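The count of less accessible members stayed within 1.5 times 44 under the other tests, scalings and offsets (33 to 61) and with single libraries left out (36 to 44). The median log2 fold change was 0.038 and became -0.063 with TMM from GC-rich promoter peaks, 0.13 with GC-bin offsets and 0.13 with these and the replicate block, and with libraries left out it was 0.020 to 0.075. The 28 more accessible members became 15 with DESeq2, which gave no adjusted p for 143 members, 17 with TMM from GC-rich promoter peaks, 48 with GC-bin offsets, 47 with these and the block, and 19 to 31 with libraries left out. Without the fold threshold the 120 lower members became 68 with DESeq2 and 190 with TMM from GC-rich promoter peaks, and 76 to 122 with libraries left out, and the 67 higher ones became 30, 41, 110 with GC-bin offsets and 114 with the block added, and 33 to 63 with libraries left out. The causes were not tested.

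At an adjusted p below 0.05 there were 46 more accessible, 216 lower and 150 higher members. Rules that admit other members gave other counts by construction. GC below 45% gave 18 less, 6 more, 44 lower and 14 higher, with a median control count of 42.6 (50.5 in all members). A centre within 500 bp gave 25, 13, 65 and 37. Canonical starts gave 13 less, 18 more and 52 lower, with a median change of 0.074. Starts of all transcripts gave 70 less and 212 lower. With at least 10 counts in every library the median control count was 56.2.

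Control and dm-αKG libraries of the same replicate number did not deviate together (r = -0.014, -0.0013 and 0.013), so the numbers were not taken as pairs. The replicate block gave 44 less and 25 more accessible members. Of 37 named members, 30 passed the adjusted p, and 23 of these passed it in all 17 settings, while 7 missed it in at least 1. Changes of sign occurred in members that did not pass, with -0.069 at GBF1, -0.036 at ATP5F1B and -0.042 at ARID4A with TMM from GC-rich promoter peaks, and 0.067 at ARMC1 both with GC-bin offsets and with these and the block. With libraries left out ARMC1 ranged from -0.093 to 0.028. Depth limits the precision at low counts, and the median control count was 19.5 in the more and 77.5 in the less accessible members.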

Other observations

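Gene families were defined by their names, and over all peaks 6.54% were lower and 3.34% higher at an adjusted p below 0.01. Of 70 members at 63 zinc finger genes (ZNF), 2 were lower and 6 higher at that threshold in edgeR's test (2.86% and 8.57%), 3 of them called more accessible, with a median log2 fold change of 0.21. Of 58 members at 43 solute carrier genes, 4 were lower and 4 higher (6.90% each), with a median of -0.08. Cytosolic ribosomal protein genes had 13 members with 1 lower, olfactory receptors 8 with 1 lower, tripartite motif genes 10 with 2 lower, and CD antigens 8 with 1 lower. Protocadherins (17 members), interleukins and their receptors (10), cytochromes P450 (4), chemokines (3), keratins (1), serpins (1) and defensins (1) had 0 past that threshold, and 3, 1, 1, 1, 1, 0 and 0 by unadjusted p below 0.05. By that unadjusted p, 333 of all 2572 members were lower and 342 higher. Taste receptors, keratin-associated proteins, S100 proteins and claudins had 0 members.

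Histone genes, a group chosen after values were seen, had 51 members at 39 genes, of which 4 were lower (7.84%, near the 6.54% of all peaks) and 0 higher at an adjusted p below 0.01. Their median log2 fold change was -0.14, and the lower peaks were at H2BC12, H1-5, H2BC5 and H4C3, with -1.04, -0.82, -0.61 and -0.70. These genes are near copies in part, and reads shared between copies cannot be assigned with certainty.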
